A study of Homo sapiens with 12 samples.

Results

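TCIM and 9 genes of the Wnt/beta-catenin pathway (AXIN2, LGR5, NKD1, CTNNB1, GLUL, TCF7L2, RNF43, ZNRF3 and SP5) were followed on every array of a study of erythroferrone in Huh7 cells. The genes were taken by symbol from the platform annotation. All 10 had at least 1 probe, 19 probes in all, out of 47323 probes on the array. Of these, 8 genes with 12 probes were detected widely enough to be tested, among 10891 genes tested. TCIM was chosen because of its difference between treated and untreated cells in these data, so that difference is given as a description only.

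Huh7 is an established human hepatoma cell line. Erythroferrone (ERFE) is a hormone of erythroid precursors that lowers hepcidin, the iron hormone of the liver. Cells were left untreated, or received human ERFE or mouse ERFE at 10 µg/ml, and all were sampled at 24 h, with 4 arrays in each group. Of the mouse ERFE arrays, 2 (A4 and B4) are both titled replicate 3 and are called 3-A4 and 3-B4 here. They differed by an SD of 0.262 (log2 signal over genes), beside up to 0.384 between other arrays of that group, and were counted as separate arrays. RNA was hybridised to Illumina HT-12 v4 arrays, which carry 1 colour. The labels do not state whether replicates are separate cultures, and the p-values therefore describe only array-to-array spread, possibly a technical one.

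In Wnt/beta-catenin signalling, a secreted Wnt ligand binds a Frizzled receptor and an LRP co-receptor, the cytoplasmic destruction complex is held back, and beta-catenin builds up and acts with TCF/LEF factors on target genes. In the liver the pathway is known for setting the gene expression of hepatocytes around the central vein. TCIM (TC1, C8orf4) encodes a small protein known to bind Chibby, an inhibitor of beta-catenin, and so to favour beta-catenin activity. RNF43 and ZNRF3 are ubiquitin ligases that remove Frizzled receptors from the cell surface, and LGR5 is a receptor for the R-spondins that oppose them.

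Upstream sequences from RefSeq (GRCh38.p14) were read for 5 of the 10 genes: CTNNB1, GLUL, TCF7L2, RNF43 and SP5. The search left out TCIM. Those of RNF43 are shown because its normalised treated and untreated signals did not overlap, although it passed the test in neither separate comparison below. That of SP5 is shown because it held the most matches to the TCF/LEF core among the windows read. The motifs searched on both strands in the 250 bases before each start were CTTTGA and CTTTGT, which are letters of that core, and the GC-rich GGCGCC. Capitals mark the matches of CTTTGA and CTTTGT, which read TCAAAG and ACAAAG where they lie on the other strand. Of 35116 such windows, 11.2% held CTTTGA, 13.7% held CTTTGT, 22.8% held either of these and 16.4% held GGCGCC. The first RNF43 window is chr17:58417535-58417784 and the second chr17:58402722-58402971, both on the minus strand, and the SP5 window is chr2:170715087-170715336 on the plus strand. All are printed 5′ to 3′ in the direction of transcription.
RNF43 start 1: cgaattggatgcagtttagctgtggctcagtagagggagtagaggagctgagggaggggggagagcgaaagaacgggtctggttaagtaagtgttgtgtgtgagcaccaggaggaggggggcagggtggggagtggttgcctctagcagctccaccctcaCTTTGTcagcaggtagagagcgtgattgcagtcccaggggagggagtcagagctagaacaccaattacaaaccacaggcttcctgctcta
RNF43 start 2: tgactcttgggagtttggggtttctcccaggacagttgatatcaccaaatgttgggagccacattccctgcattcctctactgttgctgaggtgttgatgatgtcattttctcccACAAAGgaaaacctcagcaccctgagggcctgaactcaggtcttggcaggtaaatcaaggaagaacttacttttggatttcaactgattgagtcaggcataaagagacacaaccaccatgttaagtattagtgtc
SP5: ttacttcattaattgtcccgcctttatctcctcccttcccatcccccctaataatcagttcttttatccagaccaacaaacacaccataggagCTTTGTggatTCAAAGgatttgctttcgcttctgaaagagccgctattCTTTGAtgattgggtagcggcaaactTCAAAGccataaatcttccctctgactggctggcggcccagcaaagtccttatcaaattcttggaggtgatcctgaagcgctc
Each RNF43 window held 1 CTTTGT, and the SP5 window held 3 CTTTGA and 1 CTTTGT. Of the windows not printed, 1 of TCF7L2 held 1 CTTTGT, and 1 window each of CTNNB1, GLUL and TCF7L2 held 1 GGCGCC. A match describes the letters and does not show that a factor binds there.

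The median raw signal of the arrays ranged from 139.5 to 186.3, and 34.5% to 39.1% of probes were detected (detection p under 0.05). Of 10 hepatocyte markers, 8 had a named probe, and all 8 were detected on all 12 arrays. Transcripts of antigen-presenting cells differed between arrays: the mean log2 signal of the 5 detected of 10 listed was 5.66 to 9.18 in untreated arrays, 6.46 to 8.21 with human ERFE and 6.04 to 8.99 with mouse ERFE, while CIITA, LAPTM5 and PTPRC were detected on no array. Values below are log2 normalised signal unless stated, differences are on the same log2 scale, and "called" means an adjusted p under 0.05 from limma over all genes tested. The human and mouse ERFE comparisons share the same 4 untreated arrays.

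TCIM was higher in every array treated with ERFE of either species. Its log2 signal was 9.08, 9.15, 9.12 and 9.29 in untreated replicates 1 to 4. With human ERFE it was 9.80, 9.70, 9.62 and 9.56. With mouse ERFE it was 9.78, 9.68, 9.61 and 9.55. Neither treated group overlapped the untreated one, and the lowest treated array stood 0.27 (human) and 0.26 (mouse) above the highest untreated array. The means were 9.16 ± 0.09, 9.67 ± 0.10 and 9.65 ± 0.10 (SD, n = 4 each), differences of 0.51 (1.42-fold) with human ERFE and 0.49 (1.41-fold) with mouse ERFE. Before normalisation the groups did overlap: the untreated replicate 4 array read 858 intensity units and the human ERFE replicate 4 array 829. Mouse ERFE replicates 2, 3-A4 and 3-B4 read 745, 809 and 741, and untreated replicate 1 read 749. TCIM was the 1 gene called among the 8 tested in each comparison, where 0.248% of all genes were called with human ERFE and 0.22% with mouse ERFE. Since TCIM was chosen from these comparisons, nothing is read from that count. The call with human ERFE was lost when any 1 human ERFE array or untreated replicate 1, 2 or 3 was left out. The call with mouse ERFE was lost without mouse ERFE replicate 1, 2 or 3-A4, untreated replicate 1, 2 or 3 or human ERFE replicate 2, and when arrays 3-A4 and 3-B4 were averaged. Human and mouse ERFE, a comparison that did not enter the choice, differed by 0.02 (95% interval -0.16 to 0.20, limma adjusted p = 0.999), where 0.00918% of all genes were called.

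**Figure D1:**
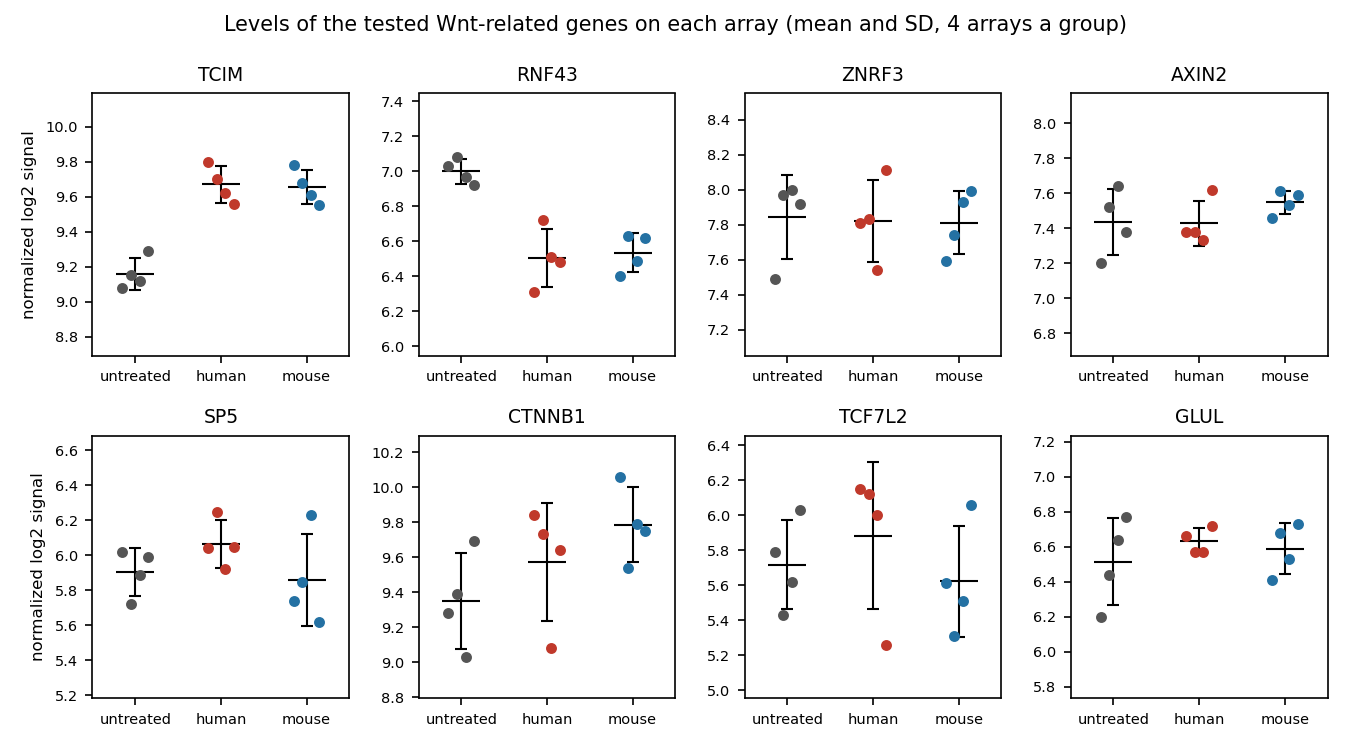
Log2 normalised signal of each of the 8 tested genes on all 12 arrays (points), with mean and SD of 4 arrays a group and panels of equal height in log2 units. TCIM sits between 9.55 and 9.80 on the treated arrays and between 9.08 and 9.29 on the untreated ones, and RNF43 is the other gene whose treated and untreated arrays do not overlap.

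RNF43 lay in the opposite direction. Untreated arrays read 7.03, 7.08, 6.97 and 6.92. Arrays with human ERFE read 6.31, 6.72, 6.51 and 6.48, and those with mouse ERFE 6.40, 6.63, 6.49 and 6.62. Every treated array was below every untreated one. Before normalisation the groups did overlap: untreated replicate 2 read 229 intensity units, human ERFE replicate 2 read 252 and mouse ERFE replicate 1 read 262. The probe was detected on all 12 arrays but read only 194 to 280 units, where array medians were 139.5 to 186.3. The normalised means were 7.0 ± 0.07, 6.51 ± 0.17 and 6.54 ± 0.11 (SD, n = 4 each). The difference was -0.49 with human ERFE (95% interval -0.70 to -0.28, limma adjusted p = 0.0711) and -0.46 with mouse ERFE (-0.67 to -0.25, limma adjusted p = 0.0693), so RNF43 missed the threshold in both. Genes whose arrays did not overlap made up 3.99% of all genes with human ERFE and 6.94% with mouse ERFE. Without TCIM, whose difference was fixed by its choice, RNF43 was the 1 such gene of the 7 tested in each comparison. At an unadjusted p under 0.05 there were 1 of these 7 with human ERFE (6.98% of all genes) and 2 with mouse ERFE (11.5% of all genes), RNF43 and, with mouse ERFE, CTNNB1. With both ERFE groups pooled, a comparison added after seeing the data, RNF43 was called at -0.48 (-0.65 to -0.30, limma adjusted p = 0.0283), where 0.459% of all genes were called. That call was lost in 6 of 12 fits without 1 array (human ERFE replicate 4, mouse ERFE replicate 1 or 3-A4, or untreated replicate 1, 2 or 3) and under 6 of 16 other settings, with adjusted p-values up to 0.389. RNF43 was called with human ERFE without human ERFE replicate 2 (adjusted p = 0.0449) and with mouse ERFE without untreated replicate 4 (adjusted p = 0.0477). Without background correction the differences were -0.22 and -0.21 (adjusted p = 0.175 and 0.106). Human and mouse ERFE differed by -0.03 (-0.24 to 0.18, adjusted p = 0.999).

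ZNRF3, the relative of RNF43, showed no difference past the threshold. Its arrays read 7.49, 7.97, 8.0 and 7.92 untreated, 7.81, 7.83, 7.54 and 8.11 with human ERFE, and 7.59, 7.74, 7.93 and 7.99 with mouse ERFE. The groups overlapped throughout, and the differences were -0.02 (-0.33 to 0.29, adjusted p = 0.993) and -0.03 (-0.34 to 0.28, adjusted p = 0.968). LGR5 was detected on 1 of 12 arrays and NKD1, a feedback inhibitor that acts on Dishevelled, on 0 of 12, so neither was tested and no fold is given.

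CTNNB1, which encodes beta-catenin, had 7 probes, of which 3 passed the detection filter. The brightest read 9.28, 9.39, 9.03 and 9.69 untreated, 9.84, 9.73, 9.08 and 9.64 with human ERFE, and 10.06, 9.54, 9.79 and 9.75 with mouse ERFE. The human ERFE arrays overlapped the untreated ones (0.22, -0.16 to 0.61, adjusted p = 0.857), and the mouse ERFE difference of 0.44 (0.05 to 0.82) had an adjusted p of 0.368. A second, similarly bright probe read 0.10 and 0.34. The dimmest of the 3 read -0.35 and -0.36 (limma adjusted p = 0.838 and 0.642 over all probes). Its group means were only 5.64 to 6, and it was detected on 2 of 4 human ERFE arrays. TCF7L2, a TCF factor that partners beta-catenin, differed by 0.16 (adjusted p = 0.929) and -0.10 (adjusted p = 0.926). Its probe was dim, with group means of 5.62 to 5.88. It was detected on 4 untreated, 3 human ERFE and 2 mouse ERFE arrays, which limits what these differences show.

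**Figure D2:**
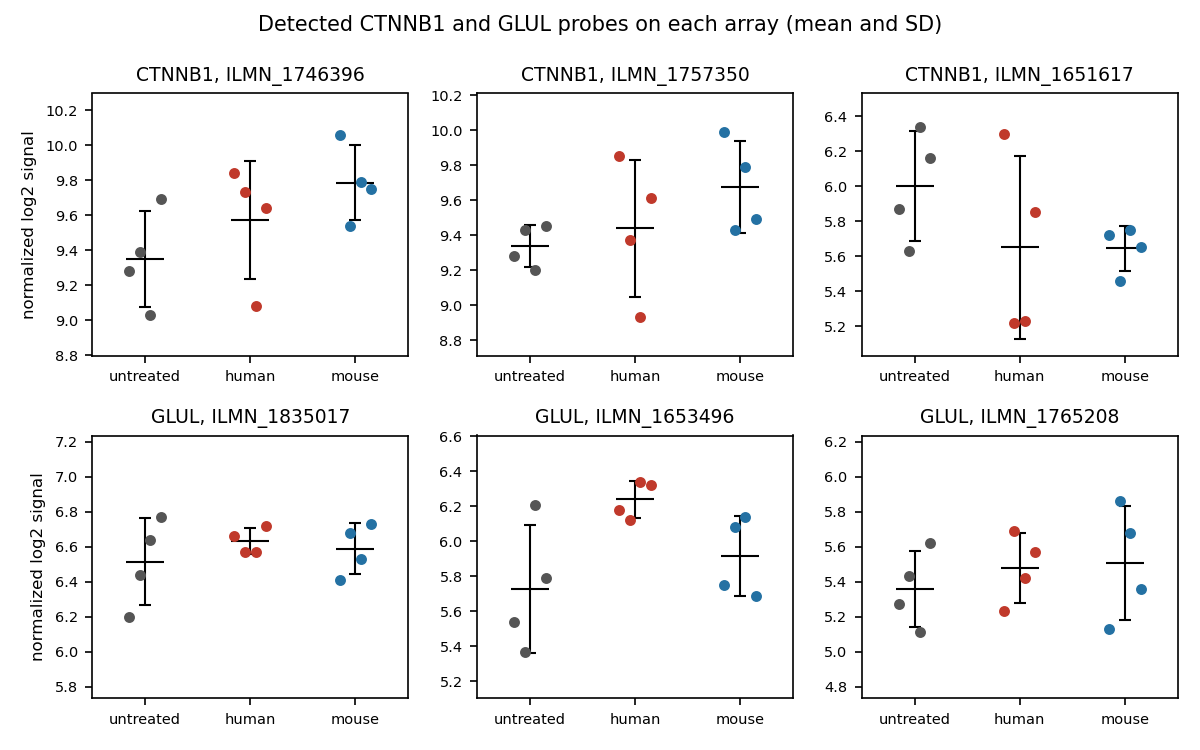
Log2 normalised signal on each array (points), with mean and SD of 4 arrays a group, for the 3 CTNNB1 and 3 GLUL probes that passed the detection filter. Differences of the CTNNB1 probes for human ERFE run from -0.35 to 0.22. The lowest is that of the dimmest probe, which was detected on 2 of 4 human ERFE arrays.

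AXIN2, SP5 and GLUL, which are known as targets of the pathway, did not pass the test in either comparison with untreated cells. AXIN2, a scaffold of the destruction complex and a feedback target, read 7.20, 7.52, 7.64 and 7.38 untreated, 7.38, 7.38, 7.33 and 7.62 with human ERFE, and 7.46, 7.61, 7.53 and 7.59 with mouse ERFE. All 3 groups overlapped, with differences of -0.01 (-0.23 to 0.21, adjusted p = 0.995) and 0.11 (-0.11 to 0.33, adjusted p = 0.757). SP5, a transcription factor gene whose upstream window is shown above, differed by 0.16 (-0.12 to 0.44, adjusted p = 0.857) and -0.04 (-0.32 to 0.23, adjusted p = 0.948). The SP5 probe was detected on all 12 arrays but was dim, with group means of 5.86 to 6.07. GLUL, the glutamine synthetase of pericentral hepatocytes, differed by 0.12 (adjusted p = 0.899) and 0.08 (adjusted p = 0.893). A second GLUL probe differed by 0.51 and 0.19 (adjusted p = 0.527 and 0.776 over all probes). Group means were 6.51 to 6.63 for the GLUL probe used and 5.73 to 6.24 for the second. The low signals of SP5 and GLUL limit what these differences show. Without TCIM, the median difference over the 7 tested genes was 0.12 with human ERFE and -0.03 with mouse ERFE, beside 0.01 and 0.00 over all genes.

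**Figure D3:**
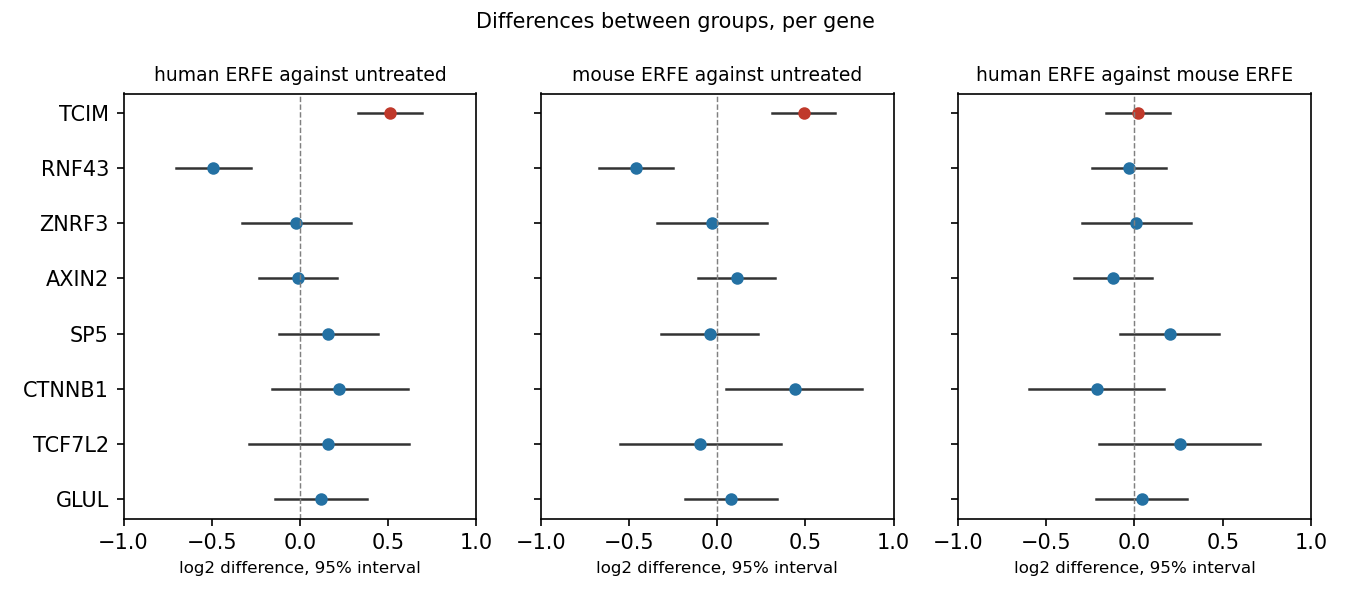
Log2 difference from untreated with its 95% interval for the 8 tested genes, and the difference between human and mouse ERFE on the right. TCIM (red) lies at 0.51 and 0.49 and RNF43 at -0.49 and -0.46. The 2 comparisons share the untreated arrays.

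Of 98 other Wnt pathway genes listed, 48 were tested. Limma called 0 of them in either comparison with untreated cells, where 0.248% and 0.22% of all genes were called. At such shares a count of 0 among 48 genes says little. At an unadjusted p under 0.05 there were 7 with human ERFE (5 higher, 2 lower) and 9 with mouse ERFE (7 higher, 2 lower). Over all genes these shares were 6.98% and 11.5%. LGR6 and BCL9L were detected on no untreated array and passed the detection filter through treated arrays alone. Without genes detected on no array of a group (these 2, and FZD8 with mouse ERFE), a count added after seeing the data, there were 6 of 46 (4 higher, 2 lower) and 7 of 45 (5 higher, 2 lower). Over the 48 genes the median difference was 0.03 and 0.04. By role, 3 of 25 ligand genes, 13 of 17 receptor genes, 5 of 14 antagonist genes, 11 of 18 transducer genes, 11 of 15 nuclear genes and 11 of 20 target genes could be tested. These lists overlap: 6 of the target genes are among the genes followed above, 4 of them tested, and DKK1, LEF1, NKD2, NOTUM and TCF7 stand in more than 1 role.

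WLS, the carrier protein that takes Wnt ligands to the cell surface, came nearest to the threshold. It read 8.77, 8.91, 8.97 and 8.71 untreated, 9.29, 9.32, 9.27 and 9.28 with human ERFE, and 9.14, 9.40, 9.24 and 9.16 with mouse ERFE. Every treated array was above every untreated one. Before normalisation the human ERFE arrays did not overlap the untreated ones. Mouse ERFE replicate 3-B4 then read 596 intensity units, below untreated replicates 1 and 4 at 630 and 618. The difference was 0.45 (0.27 to 0.64, adjusted p = 0.0533) and 0.40 (0.22 to 0.58, adjusted p = 0.0761), and 0.43 (adjusted p = 0.0256) with both ERFE groups pooled. Its 4 other probes read 0.25 to 0.51 higher with human ERFE and 0.28 to 0.57 higher with mouse ERFE. In a limma fit over all probes no WLS probe passed the threshold. The adjusted p was 0.119 and 0.138 for the probe used. For the other probes it was 0.412 or more with human ERFE and 0.167 or more with mouse ERFE. The pooled call was lost in 5 of 12 fits without 1 array (human ERFE replicate 2 or 4, mouse ERFE replicate 3-A4, or untreated replicate 1 or 2) and under 6 of 16 other settings, with adjusted p-values up to 0.389. In the separate comparisons WLS passed the threshold under 6 of 17 other settings with human ERFE and 3 of 17 with mouse ERFE, and without mouse ERFE replicate 2 with human ERFE (adjusted p = 0.0457).

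**Figure D4:**
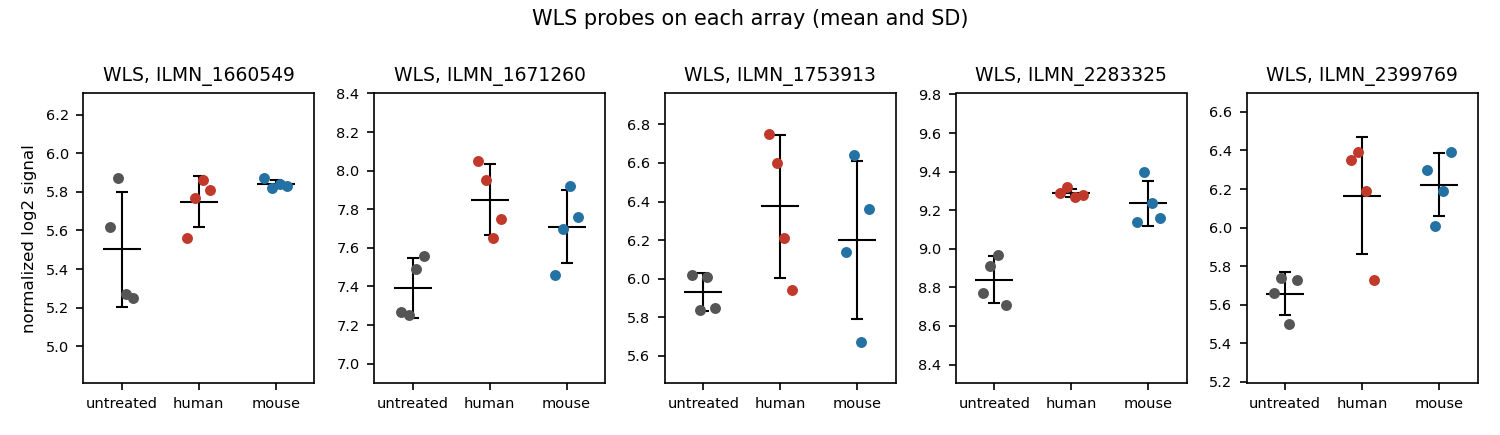
Log2 normalised signal of the 5 WLS probes on all 12 arrays (points), with mean and SD of 4 arrays a group. On the probe used, untreated arrays lie between 8.71 and 8.97 and treated arrays between 9.14 and 9.40.

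No receptor gene passed the test. FZD9, a Frizzled receptor, differed by 0.22 and 0.26 (adjusted p = 0.714 and 0.368). FZD8 differed by -0.36 with human ERFE (adjusted p = 0.613), where it was detected on only 1 of 4 arrays. It was detected on 3 untreated arrays but 0 with mouse ERFE, where no fold could be given. LGR6, an R-spondin receptor, was detected on none of the untreated arrays (0 of 4), on 2 arrays with human ERFE and on 3 with mouse ERFE. A probe detected on no array of a group has only a bound there (per array, the lowest signal among detected probes or its own, whichever is higher). Set against that bound, LGR6 was 1.03-fold higher with mouse ERFE, with no fold for human ERFE. The mouse ERFE mean includes an array without detection, so this fold is not a firm lower limit. LGR6 overlapped the untreated arrays in both comparisons and was not called (adjusted p = 0.592 and 0.216). The R-spondin gene RSPO2 differed by -0.05 in both (adjusted p = 0.986 and 0.971).

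The secreted antagonist DKK3 differed by 0.18 and 0.27 (adjusted p = 0.776 and 0.314), with every mouse ERFE array above the untreated ones. Before normalisation these groups overlapped, at 453 intensity units on untreated replicate 4 and 338 on mouse ERFE replicate 2. FRZB, a decoy for Wnt ligands, differed by -0.06 and -0.01, and KREMEN2, a receptor for Dickkopf proteins, by 0.07 and 0.20. Of the transducers, the kinase gene CSNK1D differed by 0.15 and 0.06 (adjusted p = 0.714 and 0.839), but its second probe by -0.16 and -0.29. CXXC5, an inhibitor that binds Dishevelled, differed by -0.15 and -0.21 (adjusted p = 0.731 and 0.307), and the Dishevelled gene DVL2 by 0.02 and -0.15. BCL9L, a co-activator that binds beta-catenin, was detected on 0 of 4 untreated arrays, 2 of 4 with human ERFE and 3 of 4 with mouse ERFE, and was not called (adjusted p = 0.743 and 0.355). Its human ERFE arrays overlapped the untreated ones (95% interval of the difference -0.03 to 0.78). Set against the bound of the untreated arrays, BCL9L was 1.22-fold higher with mouse ERFE. That mouse ERFE mean also includes an array without detection, so the fold is not a firm lower limit.

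Among target genes, MYC, a growth-promoting transcription factor, differed by -0.35 (adjusted p = 0.371) and -0.45 (adjusted p = 0.0902), with every treated array below every untreated one. Before normalisation MYC overlapped, at 788 intensity units on untreated replicate 2, 1094 on human ERFE replicate 3 and 940 on mouse ERFE replicate 1. Of the nuclear genes, TLE4, a co-repressor that binds TCF factors, differed by 0.44 (adjusted p = 0.137) and 0.25 (adjusted p = 0.326), but its second probe by 0.11 and 0.06. CBY1, a nuclear gene that encodes Chibby, differed by 0.13 and 0.12 (adjusted p = 0.826 and 0.698). LGR4, an R-spondin receptor named after its values were seen, differed by 0.47 and 0.43 (adjusted p = 0.617 and 0.389). CD44, a listed target gene that encodes a surface glycoprotein, was also named after its values were seen. CD44 differed by -0.64 (-1.66 to 0.38) and -0.93 (-1.96 to 0.09). It read 7.85, 9.03, 7.85 and 6.45 on the untreated arrays, where the mean of the antigen-presenting transcripts was 9.0, 9.18, 8.49 and 5.66, and the part of those transcripts in the CD44 difference was not tested. With that mean as a covariate, TCIM differed by 0.52 and 0.50, RNF43 by -0.51 and -0.49 and WLS by 0.46 and 0.41.

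Genes of liver zonation were read in the same way. Of 11 pericentral genes 4 were tested, with medians of 0.06 and 0.07 and 0 at an unadjusted p under 0.05, and CYP1A2, CYP2E1, LECT2, NR1I3, RHBG and SLC1A2 were detected on no array. Of 11 periportal genes 6 were tested and limma called 0 (0.248% and 0.22% of all genes), with 2 higher for human ERFE and 2 higher and 1 lower for mouse ERFE at an unadjusted p under 0.05 (6.98% and 11.5% of all genes). Of the pericentral genes OAT, an enzyme of ornithine metabolism, differed by 0.13 and 0.07. Among the periportal ones HAL, which breaks down histidine, differed by 0.47 and 0.38 (adjusted p = 0.177 and 0.192), and CDH1, which encodes E-cadherin, by 0.39 and 0.40 (adjusted p = 0.457 and 0.243). ASS1, an enzyme of the urea cycle, differed by -0.03 and -0.35 (adjusted p = 0.979 and 0.19).

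**Figure D5:**
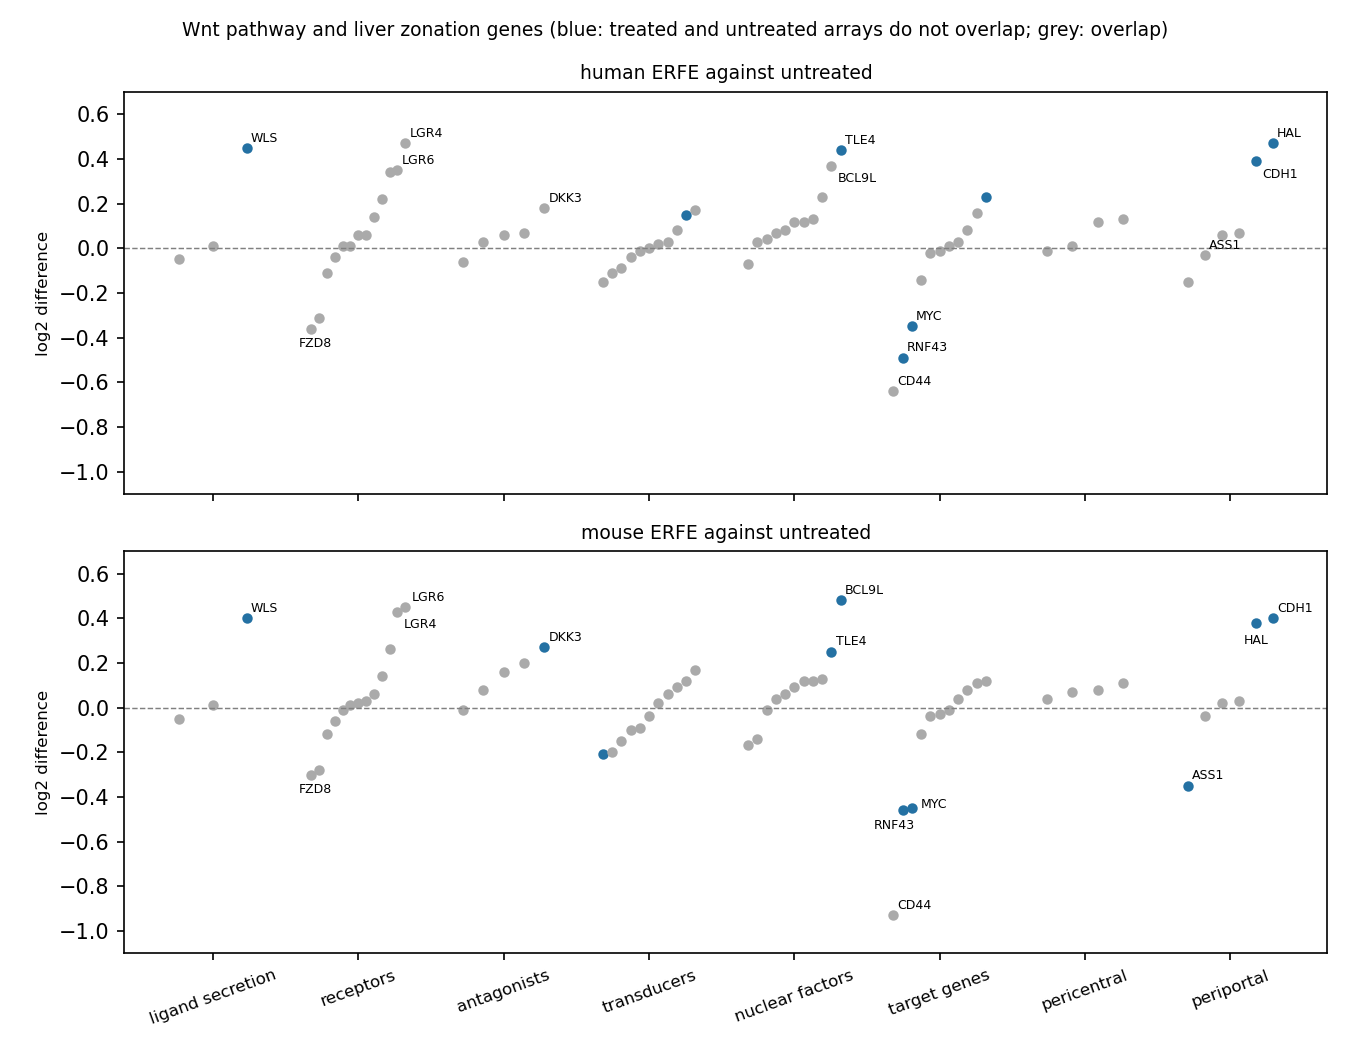
Log2 difference from untreated for the tested Wnt pathway and zonation genes, grouped by role, for human (top) and mouse ERFE (bottom), blue where treated and untreated arrays did not overlap. Fitted values are drawn also for LGR6, BCL9L and FZD8, which were not detected in a whole group. The median of the 48 other pathway genes lies at 0.03 and 0.04, and WLS lies at 0.45 and 0.40.

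The genes whose pattern over the 12 arrays was most like that of TCIM were ANXA2R (Pearson r 0.94), ZFP90 (0.94), GTF2H5 (0.92), ARMCX3 (0.91), TFF3 (0.91) and METTL23 (0.90). The most opposite were PFKFB3 (-0.95), HAMP (-0.94), which encodes hepcidin, and SLC29A3 (-0.94). Among the genes followed here r was -0.91 for RNF43, 0.65 for CTNNB1 and 0.08 for AXIN2. The points share the difference between groups, so r was also taken after each group's mean was removed. It was then 0.81 for ANXA2R, 0.64 for ZFP90, 0.90 for GTF2H5, 0.76 for ARMCX3, -0.14 for TFF3 and 0.64 for METTL23. For PFKFB3, HAMP and SLC29A3 it was -0.57, -0.36 and -0.33. For RNF43, CTNNB1 and AXIN2 it was -0.45, 0.62 and -0.28.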

How the data were processed

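Probe intensity and a detection p-value for each probe and array were deposited by the authors, and no aligner or genome build applies. The table described as normalized and the value table held the same intensities (567876 of 567876 values equal), so the deposited intensity is not normalised. Software named in the submitters' processing notes is lumi and limma, with neither version nor role.

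Here intensities were background-corrected and quantile-normalised on the log2 scale as in neqc (offset 16), in R 4.3.3 with limma 3.58.1 and statmod 1.5.0. Of 47323 probes, 30113 had 1 gene symbol in the platform annotation, 8 several and 17202 none; symbols were updated through RefSeq. A probe was retained (18646 probes) if its detection p was below 0.05 in 4 or more of the 12 arrays, and the brightest probe stood for each of 10891 genes. All groups entered 1 limma fit without a block (9 residual and 3.56 prior degrees of freedom), with Benjamini-Hochberg adjustment over all genes. The limma fit was tested on simulated gene-level values, and the steps before the fit were not tested in this way. The number of arrays limits the precision.

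The genes and lists were chosen with earlier results of these data known. Of each list, called genes and otherwise the 2 with the smallest unadjusted p in each comparison with untreated cells were named, as were the 6 genes most and the 3 least correlated with TCIM; exceptions are stated. Alternatives changed background correction, normalisation, filter, probe rule, model, blocks, a covariate and the arrays used.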

Additional observations from a re-analysis of the deposited data

Results flagged for a closer look

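ZNRF3 in the untreated group had 1 array apart from the rest: replicate 1 read 7.49, and the other 3 arrays 7.92 to 8.0. It was the 1 such array in 24 groups of 4 examined, and chance gives about 1 in 20 groups. Without it the ZNRF3 difference was -0.14 with human ERFE (limma adjusted p = 0.943) and -0.15 with mouse ERFE (limma adjusted p = 0.772).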

How the results depend on the processing

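TCIM kept its direction throughout, at 0.47 to 0.55 (human ERFE) and 0.45 to 0.54 (mouse ERFE) when 1 array was left out. Human minus mouse ERFE was -0.03 to 0.06 when 1 array was left out and 0.18 with median centring. The call of TCIM was less steady: the number of genes followed here that were called went from 1 to 0 in both comparisons with median centring, only the 2 groups compared, each block, the covariate and all probes as units (added after seeing the data), and with mouse ERFE also when the arrays both titled replicate 3 were averaged. It became 2 (RNF43 and TCIM) in both with detection on all 12 arrays or a detection p under 0.01, and with mouse ERFE with array weights. Leaving out 1 array gave 0 to 1 (human; 0 without human ERFE replicate 1, 3 or 4 or untreated replicate 1, 2 or 3, and RNF43 in place of TCIM without human ERFE replicate 2) and 0 to 2 (mouse; 0 without human ERFE replicate 2, mouse ERFE replicate 1, 2 or 3-A4 or untreated replicate 1, 2 or 3, and 2 without untreated replicate 4). Of the other Wnt genes (0 called), human ERFE gave 1 (WLS) without background correction, with offset 50, either stricter filter or a trend, and 2 (TLE4 and WLS) with array weights; mouse ERFE gave 2 (MYC and WLS) without background correction or with a trend and 1 (WLS) with detection on all 12 arrays; leaving out 1 array gave 0 to 1 in both (LGR4 without untreated replicate 4 in both, and with human ERFE also TLE4 without human ERFE replicate 1 and WLS without mouse ERFE replicate 2). With both ERFE groups pooled, 2 genes followed here became 1 (TCIM) without background correction, with a trend, the title letter as block or all probes, and 0 with median centring or the title number as block; leaving out 1 array gave 1 to 2. The 1 other Wnt gene became 2 without background correction, with offset 50, detection on all 12 arrays or a trend, 3 with array weights, and 0 with median centring, each block, the covariate or all probes; leaving out 1 array gave 0 to 2. Over all genes, 27 were called with human ERFE (5 to 34 under other settings, 11 to 52 without 1 array) and 24 with mouse ERFE (0 to 79, and 8 to 156), the highest without untreated replicate 4. The replicate numbers did not pair the arrays (r -0.32 to 0.33 over 12 pairs, 2 over 0.1), and with the replicate block TCIM differed by 0.51 and 0.51. The array titles also carry a letter and a number, such as A4. Number 2 has no untreated array, 3 no mouse ERFE array and 4 no human ERFE array. Between groups r was -0.11 to 0.33 for arrays sharing a number and -0.32 to 0.39 for those sharing a letter. With the number as block, 5 genes were called over all genes with human ERFE and 0 with mouse ERFE. The cause of these shifts was not tested.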
